A study of Mus musculus with 10 samples.

Results

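The immunoproteasome and the class I peptide loading machinery were described here through 10 genes, Psmb8, Psmb9, Psmb10, Psme1, Psme2, Tap1, Tap2, Tapbp, Tapbpl and Erap1. They were taken by gene name from the 38215 genes listed, and all 10 had enough reads to be tested. The libraries were RNA-seq of GFP+ spleen cells from mice with acute myeloid leukaemia (AML) after a second transplant, 5 from C57BL/6J recipients (numbered 1, 3, 4, 5 and 6) and 5 from Rag2-/-γc-/- recipients (numbered 7 to 11). In both groups the leukaemia cells carried AML1-ETO and NrasG12D from the retrovirus MSCV-IRES-GFP, put into lineage-depleted bone marrow, and had first grown in Rag2-/-γc-/- mice, which have no T, B or NK cells of their own. The recipients' genotype therefore differs between the groups, while the introduced oncogenes are shared, and GFP marks the transduced cells. The strain of the marrow donors, the age and sex of the recipients and the time to leukaemia are not given in the labels. How many primary leukaemias supplied the recipients is not given either, and the p-values cover the spread of recipients alone. The comparison addressed what growth in an immunocompetent host did to the transcripts of the leukaemia cells.

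Cells present fragments of their own proteins to CD8+ T cells on MHC class I molecules. The proteasome cuts the proteins, and interferon gamma makes many cells swap the constitutive catalytic subunits Psmb5, Psmb6 and Psmb7 for Psmb8, Psmb9 and Psmb10 and raise the PA28 activator, a ring of Psme1 and Psme2 proteins. The TAP transporter, made of Tap1 and Tap2, pumps the peptides into the endoplasmic reticulum, where Erap1 trims them and tapasin (Tapbp) and its relative Tapbpl help to fit them into class I molecules. Haematopoietic cells, dendritic cells above all, hold much immunoproteasome also without inflammation.

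Psmb9, Tap1, Psmb8 and Tap2 lie in that order in 34334 bases of the MHC class II region of chromosome 17 (GRCm38). Psmb9 (34181988 to 34187764, minus strand) and Tap1 (34187553 to 34197225, plus strand) point away from each other and share 212 bases. Psmb8 (34197721 to 34201454) starts 495 bases past Tap1, and Tap2 (34203527 to 34216321) lies 2072 bases further on, both on the plus strand. Tapbp lies elsewhere on chromosome 17 (33915899 to 33929288), and Psme1 and Psme2 stand 5911 bases apart on chromosome 14 (55578123 to 55581529, plus strand, and 55587441 to 55591113, minus strand). Psmb10 is on chromosome 8 (105935728 to 105938392, minus strand), Tapbpl on chromosome 6 (125223933 to 125231860, minus strand) and Erap1 on chromosome 13 (74639872 to 74691875, plus strand). All are annotated as protein-coding.

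Promoter windows of RefSeq (GRCm38.p6, 250 bases before to 50 after a transcript start) were matched by symbol for 8 of the 10 genes, in 9 windows. Those of Psmb8 (chr17:34197945-34198244, plus strand) and Psme1 (chr14:55578244-55578543, plus strand) are shown because these genes were higher in C57BL/6J recipients and hold a searched motif, in capitals. That of Tap1 (chr17:34187306-34187605, plus strand) is shown because 275 of its 300 bases are also in the Psmb9 window (chr17:34187281-34187580, minus strand). It holds none of the searched motifs and has no capitals. Each is read 5′ to 3′ on the strand of its gene.
Psmb8: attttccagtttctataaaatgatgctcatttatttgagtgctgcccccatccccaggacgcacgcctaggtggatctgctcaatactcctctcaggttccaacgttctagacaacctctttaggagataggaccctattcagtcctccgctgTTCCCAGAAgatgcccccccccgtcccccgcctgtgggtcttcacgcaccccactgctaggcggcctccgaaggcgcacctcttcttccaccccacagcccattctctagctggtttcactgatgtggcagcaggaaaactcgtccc
Psme1: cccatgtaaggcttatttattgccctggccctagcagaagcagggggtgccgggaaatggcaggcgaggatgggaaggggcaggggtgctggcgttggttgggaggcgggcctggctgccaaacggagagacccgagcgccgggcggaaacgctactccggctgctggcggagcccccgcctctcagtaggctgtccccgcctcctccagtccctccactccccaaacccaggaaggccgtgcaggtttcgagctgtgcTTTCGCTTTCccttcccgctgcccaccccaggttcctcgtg
Tap1: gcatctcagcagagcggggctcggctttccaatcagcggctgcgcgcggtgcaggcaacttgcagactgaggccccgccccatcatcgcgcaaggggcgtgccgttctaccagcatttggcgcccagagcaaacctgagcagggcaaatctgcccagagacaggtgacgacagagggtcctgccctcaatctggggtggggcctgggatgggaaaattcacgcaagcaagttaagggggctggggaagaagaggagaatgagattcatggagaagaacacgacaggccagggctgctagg

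The motifs searched, on both strands and in spaced consensus form, were the interferon-stimulated response element, the gamma-activated site (TTCNNNGAA) and the NF-kB site. They occurred in 3.44%, 8.30% and 1.47% of all 32851 windows. In Psme1 the first motif lay on the opposite strand at bases 260 to 269. In Psmb8 the second lay at bases 154 to 162, 97 bases before the RefSeq transcript start. Both windows lie inside the genes as placed above, which start further upstream, at 34197721 for Psmb8 and 55578123 for Psme1. Erap1 also held the first motif, at bases 247 to 256 of its window (chr13:74639603-74639902). Of the 8 genes with a window, 3 had a match. Psme2, also higher in C57BL/6J recipients, had no match in any of its windows, and Erap1 was not called (edgeR adjusted p = 0.375). A match describes letters and not binding.

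The libraries differed in ways that touch the results. Expected counts summed to 32703932 to 44097690 per C57BL/6J library and 28157745 to 62461126 per Rag2-/-γc-/- library. C57BL/6J library 1 stood apart: mitochondrial genes took 1.34% of its counts and 2.91 to 4.0% of the others. In it the median of 4789 genes with transcripts under 2000 bases, each centred on its own mean, lay 0.27 (log2) above that of 8959 longer genes, against -0.07 to 0.06 in the other 9. On the first principal component (46.4% of the variance) Rag2-/-γc-/- libraries 10 and 11 scored 4.9 and -8.7, away from libraries 7, 8 and 9 (-61.6 to -49.6) and nearer to the C57BL/6J libraries (20.2 to 57.5). Results are therefore also given without libraries 10 and 11, or without 7, 8 and 9, alternatives chosen after seeing the data.

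All 10 genes were well expressed in both groups. Per kilobase of transcript, as TMM-scaled CPM (a gene's share of the counts of all tested genes, adjusted for library composition), Psme1 stood highest at 383 ± 64.7 in C57BL/6J and 273 ± 24.7 in Rag2-/-γc-/- recipients (SD, n = 5 each). Psmb8 was next at 370 ± 76.1 and 251 ± 33.4 CPM per kilobase, in the same order of recipients, within the spread of Psme1. Psmb9 followed at 282 ± 49.9 CPM per kilobase in C57BL/6J and 184 ± 59.5 in Rag2-/-γc-/- recipients. Tap1, Psme2 and Tapbp came close together, at 186 ± 36.6, 179 ± 21.96 and 169 ± 18.7 CPM per kilobase in C57BL/6J recipients, against 174 ± 12.3, 140 ± 10.4 and 168 ± 11.8 in Rag2-/-γc-/- recipients. In C57BL/6J recipients these did not differ beyond their spread. Tap2 lay below them at 104 ± 15.9 CPM per kilobase in C57BL/6J and 99.4 ± 12.3 in Rag2-/-γc-/- recipients, and Psmb10 at 60.9 ± 5.90 and 52.4 ± 1.49 in the same order. The lowest were Erap1, at 24.7 ± 4.67 against 21.3 ± 3.13, and Tapbpl, at 18.8 ± 1.34 against 15.4 ± 1.02 CPM per kilobase in C57BL/6J against Rag2-/-γc-/- recipients.

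**Figure D1:**
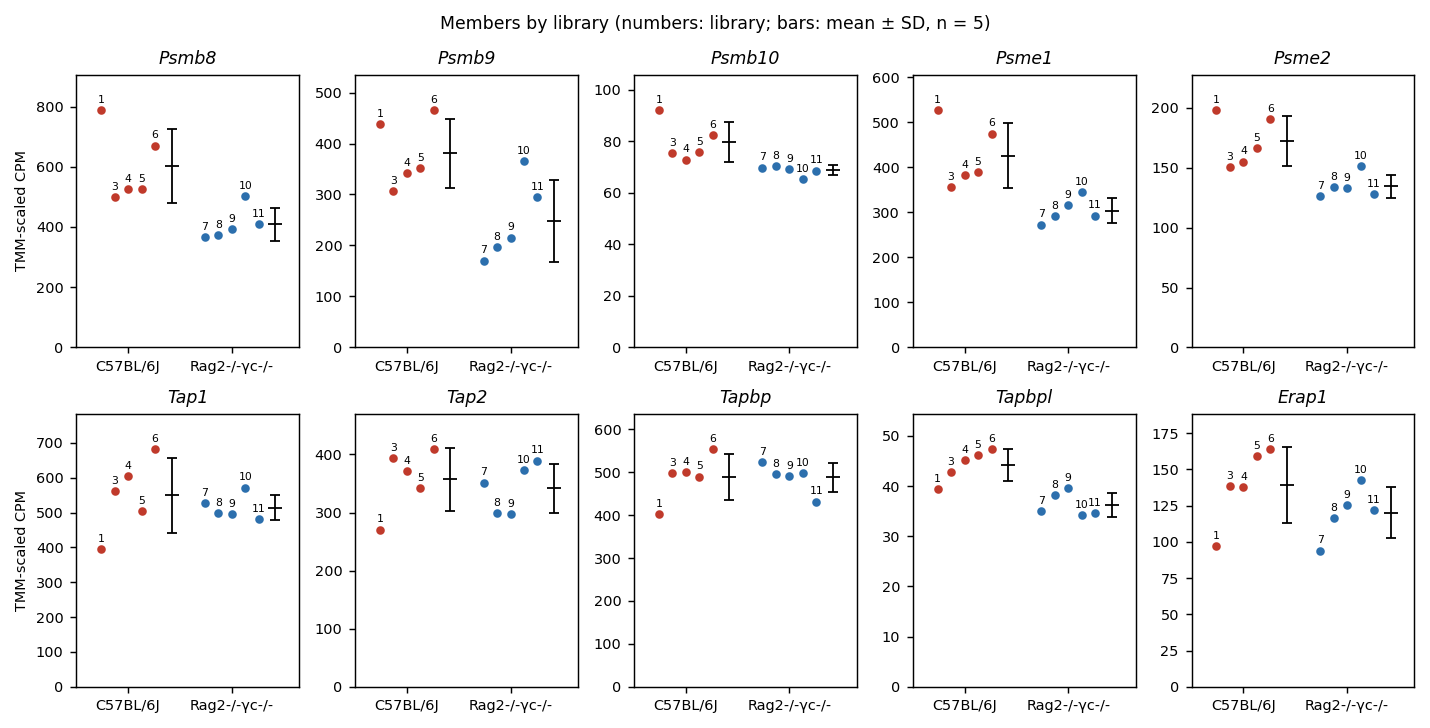
TMM-scaled CPM (vertical axes, from 0) of each of the 10 genes in every library, with C57BL/6J libraries in red on the left, Rag2-/-γc-/- libraries in blue on the right, library numbers above the points and mean ± SD beside each group (n = 5). The 5 proteasome genes of the upper row had higher means in C57BL/6J recipients, while Tap1, Tap2 and Tapbp spread over the same range in both groups.

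In cells from C57BL/6J recipients 3 of the 10 genes were higher, Psmb8, Psme1 and Psme2, against 3.32% of all tested genes (edgeR, Benjamini-Hochberg adjusted p under 0.05). None was lower, against 4.47% of all tested genes, and none was lower at an unadjusted p under 0.05 or by DESeq2 or limma-voom with or without sample quality weights. At an unadjusted p under 0.05 in edgeR 6 were higher, and DESeq2 called 5 higher, against 5.75% of all genes it tested. The median log2 fold change of the 10 was 0.25 and all 10 were above 0, beside a median of 0.0037 and 50.5% above 0 among all tested genes. In Psmb10 and Psme1 no value of one group overlapped those of the other, as for 4.13% of all tested genes in this direction. The 3 calls were not stable: edgeR called 0 of the 10 when it was run without library 6 of C57BL/6J recipients, or without library 7, 8 or 9 of Rag2-/-γc-/- recipients, where 1.94%, 2.36%, 2.26% and 2.13% of all tested genes were called higher. It called 4 of the 10 without both of libraries 10 and 11 (19.3% of all genes) and 0 without 7, 8 and 9 together (1.01%), and limma-voom with sample quality weights called 7 (23.7%).

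Among the catalytic subunits, Psmb8 carries the chymotrypsin-like activity of the immunoproteasome. Its level was 788, 499, 527, 525 and 670 CPM in C57BL/6J libraries 1, 3, 4, 5 and 6, against 367, 374, 392.2, 501 and 410 CPM in Rag2-/-γc-/- libraries 7 to 11. C57BL/6J libraries 1 and 6 were highest, and the groups met where Rag2-/-γc-/- library 10 passed C57BL/6J library 3. Psmb8 averaged 602 ± 124 CPM in C57BL/6J and 409 ± 54.4 CPM in Rag2-/-γc-/- recipients (SD, n = 5 each), so that the edgeR log2 fold change was 0.56 ± 0.14 (SE; 1.47-fold; adjusted p = 0.0361). Leaving out Rag2-/-γc-/- libraries 10 and 11 gave 0.68 (edgeR adjusted p = 0.00844), and leaving out 7, 8 and 9 gave 0.41 (edgeR adjusted p = 0.46).

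Psmb9, which cuts after branched and hydrophobic residues in place of the caspase-like Psmb6, gave the largest difference and did not pass the threshold. Its level was 438, 307, 343, 352 and 465 CPM in C57BL/6J libraries 1, 3, 4, 5 and 6, against 170, 197, 215, 366 and 295 CPM in Rag2-/-γc-/- libraries 7 to 11. Rag2-/-γc-/- library 10 lay inside the C57BL/6J range, library 11 just under it, and libraries 7, 8 and 9 well below. Psmb9 averaged 381 ± 67.5 CPM in C57BL/6J and 249 ± 80.4 CPM in Rag2-/-γc-/- recipients (SD, n = 5 each), so that the edgeR log2 fold change was 0.62 ± 0.20 (SE; adjusted p = 0.0916). DESeq2 called it (adjusted p = 0.0366), as did edgeR without Rag2-/-γc-/- library 10 (log2 fold change 0.80, adjusted p = 0.0158). Libraries 10 and 11 held the highest Psmb9 levels of their group and were set apart after seeing the data, so that the value of 0.98 without them, and of 0.21 without libraries 7, 8 and 9, follows from that choice and is a description.

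Psmb10, the trypsin-like subunit, differed least of the catalytic subunits. It had 92.2, 75.6, 73.0, 76.0 and 82.5 CPM in C57BL/6J libraries 1, 3, 4, 5 and 6, against 69.9, 70.4, 69.3, 65.4 and 68.7 CPM in Rag2-/-γc-/- libraries 7 to 11. Every C57BL/6J value was above every Rag2-/-γc-/- value, but the gap was narrow and Rag2-/-γc-/- library 10, high for Psmb8 and Psmb9, was the lowest of all. Psmb10 averaged 79.8 ± 7.73 CPM in C57BL/6J and 68.7 ± 1.95 CPM in Rag2-/-γc-/- recipients (SD, n = 5 each), so that the edgeR log2 fold change was 0.22 ± 0.08 (SE; adjusted p = 0.124).

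The constitutive counterparts showed how far one kind of subunit shifted against the other within a library, a measure that does not depend on scaling. Psmb5, the chymotrypsin-like constitutive subunit, averaged 105 ± 20.6 CPM in C57BL/6J and 90.0 ± 3.63 CPM in Rag2-/-γc-/- recipients. Psmb6, the caspase-like one, was at 113 ± 20.8 and 111 ± 8.38 CPM, and Psmb7, the trypsin-like one, at 191 ± 28.9 and 154 ± 14.1 CPM, in the same order (SD, n = 5 each). None of the 3 was called by edgeR (adjusted p 0.261, 0.915 and 0.106), limma-voom or DESeq2, 1 (Psmb7) had an unadjusted p under 0.05, and limma-voom with sample quality weights called 1, also Psmb7.

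The ratio of Psmb8 to Psmb5 was higher in C57BL/6J recipients. It was 5.67, 5.53, 5.96, 5.31 and 6.22 in C57BL/6J libraries 1, 3, 4, 5 and 6, against 4.199, 4.23, 4.48, 5.22 and 4.51 in Rag2-/-γc-/- libraries 7 to 11. The groups did not overlap, and Rag2-/-γc-/- library 10 came closest to the C57BL/6J libraries. The mean ratio was 5.74 ± 0.357 in C57BL/6J and 4.53 ± 0.413 in Rag2-/-γc-/- recipients (SD, n = 5 each), 1.27-fold apart (two-sided exact permutation test, p = 0.00794, the smallest these 252 assignments can give; adjusted over the 3 ratios, p = 0.0238). C57BL/6J library 1, the highest for Psmb8 alone, lay inside its group in this ratio. When any 1 library was left out the log2 difference was 0.31 to 0.40 (exact permutation adjusted p 0.0238 to 0.0476). Groups that do not overlap stay apart when 1 library is dropped. These fits therefore could not lose the call, and its holding says nothing about stability. Without Rag2-/-γc-/- libraries 7, 8 and 9 the difference was 0.24, and both remaining ratios still lay below every C57BL/6J ratio. The exact permutation p was then 0.0476, the smallest that 5 against 2 libraries allow, and adjustment over the 3 ratios took it to 0.143, so that the test says nothing about stability.

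The ratio of Psmb9 to Psmb6 differed more but with a wider spread. It was 2.93, 3.03, 3.28, 3.53 and 4.202 in C57BL/6J libraries 1, 3, 4, 5 and 6, against 1.40, 1.78, 1.86, 3.35 and 2.97 in Rag2-/-γc-/- libraries 7 to 11. Rag2-/-γc-/- libraries 10 and 11 fell among the C57BL/6J values and the other 3 far below them. The mean ratio was 3.39 ± 0.509 in C57BL/6J and 2.27 ± 0.840 in Rag2-/-γc-/- recipients (SD, n = 5 each), not past the threshold (exact permutation p = 0.0635, adjusted p = 0.0952). The log2 difference was 0.65 with all libraries, 0.81 without Rag2-/-γc-/- library 10 (exact permutation adjusted p = 0.0238), and, as descriptions fixed by the choice of libraries, 1.01 without 10 and 11 and 0.09 without 7, 8 and 9.

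The ratio of Psmb10 to Psmb7 was below 1 in every library. It was 0.399, 0.448, 0.424, 0.442 and 0.387 in C57BL/6J libraries 1, 3, 4, 5 and 6, against 0.477, 0.460, 0.469, 0.368 and 0.481 in Rag2-/-γc-/- libraries 7 to 11. Rag2-/-γc-/- library 10 was the lowest of all 10 and the other 4 of its group were above every C57BL/6J library. The mean ratio was 0.420 ± 0.0267 in C57BL/6J and 0.451 ± 0.0473 in Rag2-/-γc-/- recipients (SD, n = 5 each), a log2 difference of -0.10 (exact permutation p = 0.270, adjusted p = 0.270). Without Rag2-/-γc-/- library 10 the difference was -0.17 (exact permutation adjusted p = 0.0238). Leaving out library 10 ended the overlap of the groups, so that this test had to pass. Without 10 and 11 the difference was -0.16, and both values are descriptions.

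**Figure D2:**
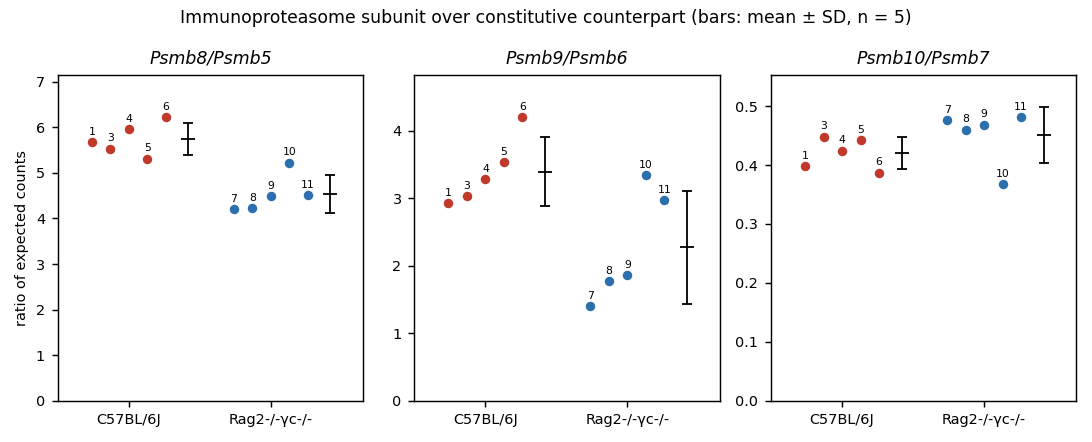
Ratio of the expected counts of each immunoproteasome catalytic subunit to those of its constitutive counterpart (vertical axes, from 0), for C57BL/6J libraries in red on the left and Rag2-/-γc-/- libraries in blue on the right, numbered by library, with mean ± SD (n = 5). The groups are apart for Psmb8/Psmb5, overlap through libraries 10 and 11 for Psmb9/Psmb6, and overlap through library 10 for Psmb10/Psmb7.

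Both genes of the PA28 activator, which opens the proteasome's gate, were higher in C57BL/6J recipients. Psme1 had 527, 357, 382, 389 and 475 CPM in C57BL/6J libraries 1, 3, 4, 5 and 6, against 273, 291, 315, 344 and 293 CPM in Rag2-/-γc-/- libraries 7 to 11. All C57BL/6J values were above all Rag2-/-γc-/- values, with libraries 1 and 6 again on top. Psme1 averaged 426 ± 72.0 CPM in C57BL/6J and 303 ± 27.5 CPM in Rag2-/-γc-/- recipients (SD, n = 5 each), so that the edgeR log2 fold change was 0.49 ± 0.12 (SE; 1.40-fold; adjusted p = 0.0296). It was 0.54 without Rag2-/-γc-/- libraries 10 and 11 (edgeR adjusted p = 0.0134) and 0.42 without 7, 8 and 9 (edgeR adjusted p = 0.347).

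Psme2 encodes the partner subunit of the same ring. It had 198, 151, 155, 167 and 190 CPM in C57BL/6J libraries 1, 3, 4, 5 and 6, against 126, 134, 133, 151 and 128 CPM in Rag2-/-γc-/- libraries 7 to 11. The groups met at Rag2-/-γc-/- library 10 (151.2 CPM) and C57BL/6J library 3 (150.7 CPM). Psme2 averaged 172 ± 21.1 CPM in C57BL/6J and 134 ± 9.97 CPM in Rag2-/-γc-/- recipients (SD, n = 5 each), so that the edgeR log2 fold change was 0.36 ± 0.10 (SE; 1.28-fold; adjusted p = 0.0463). Its reads are shared with the pseudogene Psme2b-ps, which took 21.3 to 22.8% of their sum in C57BL/6J and 22.5 to 24.7% in Rag2-/-γc-/- libraries, so its level is uncertain. With both rows summed, chosen after seeing the data, it came to 0.33 on the log2 scale (edgeR adjusted p = 0.0586). The Psme2 call also ended with no filter on low counts (edgeR adjusted p = 0.0531) and with a filter of 1 CPM in 5 libraries (0.0525). Leaving out 1 library ended the Psme2 call in 8 of 10 cases, all but C57BL/6J library 3 and Rag2-/-γc-/- library 10 (edgeR adjusted p up to 0.124). The calls of Psmb8 and Psme1 ended on leaving out library 6 of C57BL/6J, or 7, 8 or 9 of Rag2-/-γc-/- recipients (edgeR adjusted p up to 0.0933 and 0.0803). The ratio of Psme1 to Psme2 was 2.33 to 2.66 in C57BL/6J and 2.16 to 2.37 in Rag2-/-γc-/- libraries.

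The genes of the TAP transporter did not pass the threshold in edgeR. Tap1 had 394, 561, 605, 504 and 681 CPM in C57BL/6J libraries 1, 3, 4, 5 and 6, against 527, 497, 494, 571 and 480 CPM in Rag2-/-γc-/- libraries 7 to 11. C57BL/6J libraries held both the lowest value (library 1) and the highest (library 6), around the whole Rag2-/-γc-/- range. Tap1 averaged 549 ± 108 CPM in C57BL/6J and 514 ± 36.3 CPM in Rag2-/-γc-/- recipients (SD, n = 5 each), so that the edgeR log2 fold change was 0.09 ± 0.13 (SE; adjusted p = 0.661). Reads in the 212 bases it shares with Psmb9 may not be told apart by strand, since the labels do not say whether strand was kept.

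Tap2, its partner in the transporter, had 271, 394, 371, 342 and 409 CPM in C57BL/6J libraries 1, 3, 4, 5 and 6, against 352, 299, 297, 373 and 390 CPM in Rag2-/-γc-/- libraries 7 to 11. C57BL/6J library 1 was again the lowest and library 6 the highest of all 10. Tap2 averaged 357 ± 54.6 CPM in C57BL/6J and 342 ± 42.3 CPM in Rag2-/-γc-/- recipients (SD, n = 5 each), so that the edgeR log2 fold change was 0.06 ± 0.13 (SE; adjusted p = 0.767). It was 0.18 without Rag2-/-γc-/- libraries 10 and 11 and -0.09 without 7, 8 and 9, neither past the threshold (edgeR adjusted p = 0.333 and 0.9). When 1 library was left out, the edgeR log2 fold change ranged over 0.0065 to 0.19 for Tap1 and 0.011 to 0.15 for Tap2, with no call (smallest adjusted p 0.219 and 0.357). Limma-voom with sample quality weights called Tap2 (0.26, adjusted p = 0.0209) but not Tap1 (0.19, adjusted p = 0.0836), in a fit that called 23.7% of all tested genes higher. The ratio of Tap1 to Tap2 was 1.42 to 1.67 in C57BL/6J and 1.23 to 1.66 in Rag2-/-γc-/- libraries.

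The neighbours Psmb9 and Tap1 did not keep 1 ratio. It was 1.113, 0.547, 0.566, 0.699 and 0.683 in C57BL/6J libraries 1, 3, 4, 5 and 6, against 0.323, 0.396, 0.435, 0.641 and 0.614 in Rag2-/-γc-/- libraries 7 to 11. C57BL/6J library 1 was highest, and Rag2-/-γc-/- libraries 10 and 11 lay among the other C57BL/6J libraries. Psmb8 to Tap1 was 0.870 to 2.0 in C57BL/6J, with 2.0 in library 1, and 0.696 to 0.877 in Rag2-/-γc-/- libraries. No test was made of these pairs.

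Tapasin, the Tapbp protein that holds class I molecules at the transporter, was at the same mean level. Tapbp had 403, 498, 501, 490 and 553 CPM in C57BL/6J libraries 1, 3, 4, 5 and 6, against 524, 497, 491, 498 and 432 CPM in Rag2-/-γc-/- libraries 7 to 11. The groups overlapped over nearly their whole range. Tapbp averaged 489 ± 54.3 CPM in C57BL/6J and 488 ± 34.1 CPM in Rag2-/-γc-/- recipients (SD, n = 5 each), so that the edgeR log2 fold change was 0.0021 ± 0.10 (SE; adjusted p = 0.991), whose sign turned under RLE normalisation (-0.0026), a filter of 1 CPM in 5 libraries (-0.011), DESeq2 (-0.0026) and limma-voom (-0.0024).

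Tapbpl, a peptide editor that works outside the loading complex, had 39.4, 42.8, 45.2, 46.2 and 47.3 CPM in C57BL/6J libraries 1, 3, 4, 5 and 6, against 35.0, 38.2, 39.6, 34.2 and 34.6 CPM in Rag2-/-γc-/- libraries 7 to 11. The groups met only where Rag2-/-γc-/- library 9 just passed C57BL/6J library 1. Tapbpl averaged 44.2 ± 3.14 CPM in C57BL/6J and 36.3 ± 2.39 CPM in Rag2-/-γc-/- recipients (SD, n = 5 each), so that the edgeR log2 fold change was 0.28 ± 0.08 (SE; adjusted p = 0.0652). It passed without C57BL/6J library 1 (edgeR adjusted p = 0.0309), with upper quartile normalisation (edgeR adjusted p = 0.0494) and, by DESeq2, at an adjusted p of 0.00882.

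Erap1, the aminopeptidase that trims peptides to fit, had 97.0, 139, 138, 159 and 164 CPM in C57BL/6J libraries 1, 3, 4, 5 and 6, against 93.9, 116, 125, 143 and 122 CPM in Rag2-/-γc-/- libraries 7 to 11. The lowest value of each group, in libraries 1 and 7, stood well under the others. Erap1 averaged 139 ± 26.3 CPM in C57BL/6J and 120 ± 17.6 CPM in Rag2-/-γc-/- recipients (SD, n = 5 each), so that the edgeR log2 fold change was 0.21 ± 0.15 (SE; adjusted p = 0.375). It was 0.13 to 0.32 when 1 library was left out, without a call. Limma-voom with sample quality weights called it (0.27, adjusted p = 0.0328).

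**Figure D3:**
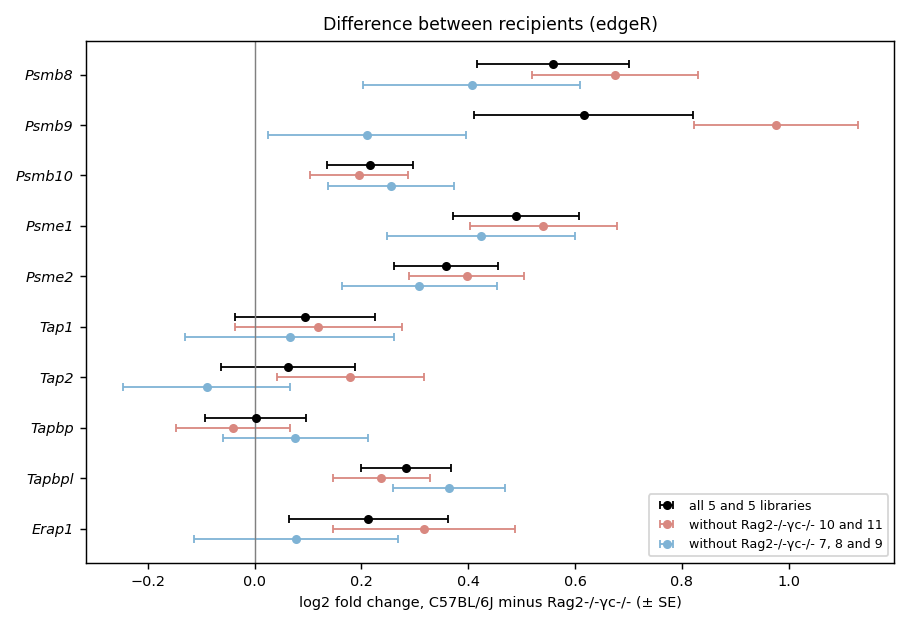
Log2 fold change of C57BL/6J minus Rag2-/-γc-/- recipients (horizontal axis; bars are SE) for each of the 10 genes in edgeR, with all libraries (black), without Rag2-/-γc-/- libraries 10 and 11 (red) and without 7, 8 and 9 (blue). Psmb9 moves most, with 0.98 and 0.21 in these subsets, while Psme1 stays at 0.54 and 0.42.

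The 10 genes did not move as 1 block across libraries. Averaged over the 5 proteasome genes, log2 CPM centred on each gene's mean was 0.50 in C57BL/6J library 1 and 0.40 in library 6, and averaged over the other 5 genes it was -0.29 and 0.28. Library 1 thus had the highest of the 10 values for Psmb8, Psmb10, Psme1 and Psme2 and the lowest for Tap1, Tap2 and Tapbp, while library 6 had the highest for Psmb9, Tap1, Tap2, Tapbp, Tapbpl and Erap1. In library 1 all 14 tested subunits of the constitutive 20S core were also above their means, by 0.36 (log2) on average. The proteasome genes of the 10 have transcripts of 962 to 1628 bases and the other 5 of 2352 to 5644 bases, and the part of transcript length in the pattern of library 1 was not tested.

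**Figure D4:**
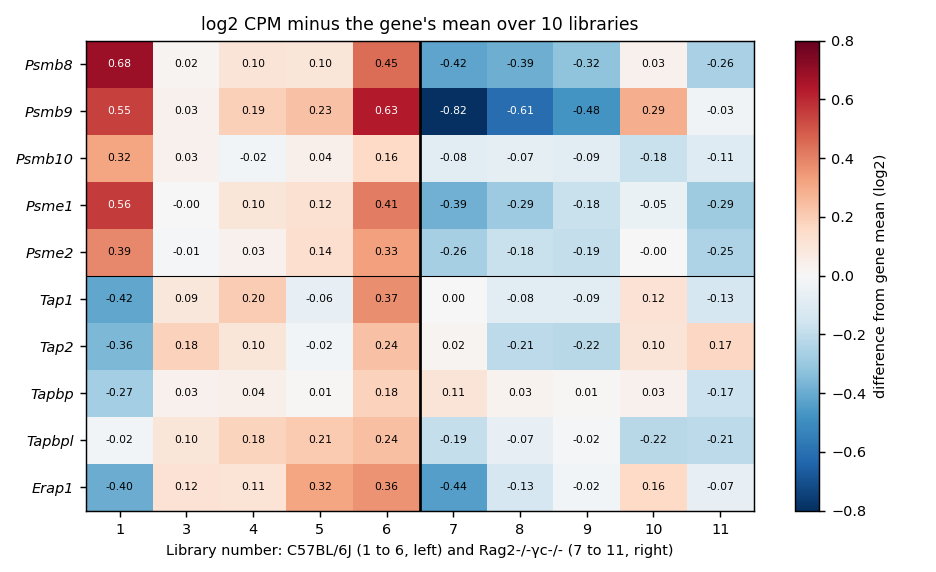
Log2 CPM minus the gene's mean over all 10 libraries (colour, with the value in each cell), genes in rows and libraries in columns, C57BL/6J on the left of the thick line. Library 1 is positive for the 5 proteasome genes above the thin line and negative for the 5 below it, and library 6 is positive for all 10.

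Within the Rag2-/-γc-/- group libraries 10 and 11 differed from 7, 8 and 9 for several of the 10 genes, given here without a test. Psmb9 averaged 330 CPM in libraries 10 and 11 and 194 CPM in libraries 7, 8 and 9, a difference of 0.77 (log2). Psmb8, Tap2 and Erap1 were likewise higher in libraries 10 and 11, by 0.26, 0.27 and 0.25 (log2). Psme1, Psme2 and Tap1 were higher by 0.12, 0.09 and 0.05. Psmb10, Tapbp and Tapbpl were lower there, with differences of -0.06, -0.12 and -0.12. These libraries were set apart after seeing the same data, so the differences follow in part from that choice and are a description.

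Of 11 other subunits of the 20S core, 2 were higher in C57BL/6J recipients and none lower, with a median log2 fold change of 0.08. Of all tested genes 3.32% were called higher. These were the ring subunits Psma3, at 231 ± 18.2 CPM in C57BL/6J and 180 ± 9.45 CPM in Rag2-/-γc-/- recipients (edgeR adjusted p = 0.0194), and Psma4, at 227 ± 19.1 and 176 ± 8.46 CPM in the same order (edgeR adjusted p = 0.0192). Neither overlapped between groups, at 205 to 249.6 CPM in C57BL/6J and 171 to 195 CPM in Rag2-/-γc-/- libraries for Psma3 and 206 to 248.6 and 164 to 185 CPM, in the same order, for Psma4. Both calls ended on leaving out library 6 of C57BL/6J or 7 of Rag2-/-γc-/- recipients, and that of Psma3 also on leaving out library 9 (edgeR adjusted p up to 0.0592). Of 21 tested subunits of the 19S cap, edgeR called none in either direction, with a median of 0.06. Psmc5, one of its ATPases, had the smallest p and was the only one with an unadjusted p under 0.05 (log2 fold change 0.28 ± 0.10, SE; edgeR adjusted p = 0.103). Of 8 tested genes among 10 other proteasome activators, inhibitors and assembly factors none was called, and 1, the nuclear activator Psme3, had an unadjusted p under 0.05 (0.25 ± 0.09, SE; edgeR adjusted p = 0.122). DESeq2 and limma-voom called none of either list, and with sample quality weights limma-voom called 2 higher and 5 lower 19S genes, and 3 higher and 1 lower of the 8. That weighted fit called 23.7% of all tested genes higher and 23.0% lower.

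Downstream of peptide transport, the class I molecules themselves did not pass the threshold. H2-K1, a classical class I heavy chain, averaged 1650 ± 307 CPM in C57BL/6J and 1416 ± 78.1 CPM in Rag2-/-γc-/- recipients (log2 fold change 0.22 ± 0.12, SE; edgeR adjusted p = 0.278). H2-D1, the other, averaged 1701 ± 187 CPM in C57BL/6J and 1743 ± 214 CPM in Rag2-/-γc-/- recipients (-0.04 ± 0.11, SE; edgeR adjusted p = 0.856), and B2m, the light chain, 1369 ± 205 and 1346 ± 222 CPM in the same order (0.03 ± 0.14, SE; edgeR adjusted p = 0.920). Neither heavy chain had an unadjusted p under 0.05, and of the other tools limma-voom with sample quality weights called 1, H2-K1. Of B2m and the chaperones Calr, Canx and Pdia3 edgeR called none, as did DESeq2 and limma-voom, and the weighted limma-voom called 3. Calr, the calreticulin of the loading complex, was the 1 with an unadjusted p under 0.05, at 1464 ± 199 CPM in C57BL/6J and 1106 ± 218 CPM in Rag2-/-γc-/- recipients (0.41 ± 0.14, SE; edgeR adjusted p = 0.103).

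Among 10 cytosolic and endoplasmic reticulum peptidases, none was lower in C57BL/6J recipients (4.47% of all tested genes), and the median was 0.24. Only 1 was higher, against 3.32% of all tested genes. This was Lap3, the leucine aminopeptidase, which is induced by interferon gamma in many cells. It had 78.5, 67.9, 68.0, 74.5 and 83.2 CPM in C57BL/6J libraries 1, 3, 4, 5 and 6, against 23.8, 31.5, 33.7, 42.05 and 38.0 CPM in Rag2-/-γc-/- libraries 7 to 11. The groups lay far apart, and the log2 fold change was 1.14 ± 0.14 (SE; 2.20-fold; edgeR adjusted p = 0.000737). The call held when any 1 library was left out (1.03 to 1.23) and without Rag2-/-γc-/- libraries 7, 8 and 9 (0.90; edgeR adjusted p = 0.0101), where none of the 10 genes of the immunoproteasome and peptide loading was called.

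Of 16 genes that regulate this pathway, 2 were higher and 2 lower, with a median of -0.06. Among all tested genes the shares were 3.32% higher and 4.47% lower. Irf1, a transcription factor induced by interferon gamma, averaged 107 ± 17.7 CPM in C57BL/6J and 67.2 ± 10.6 CPM in Rag2-/-γc-/- recipients (log2 fold change 0.68 ± 0.14, SE; edgeR adjusted p = 0.0146). Nlrc5, the transactivator of class I genes, averaged 113 ± 25.1 CPM in C57BL/6J and 63.9 ± 12.9 CPM in Rag2-/-γc-/- recipients (0.83 ± 0.18, SE; edgeR adjusted p = 0.0192). In C57BL/6J library 1 Nlrc5 was at 70.6 CPM, inside the Rag2-/-γc-/- range of 50.8 to 78.9 CPM. Its transcript has 7578 bases, and in library 1 longer genes lay below shorter ones. The part of transcript length in this low value was not tested. The lower genes were Nfkb1 and Jak1. Nfkb1, an NF-kB subunit, was at 204 ± 15.1 CPM in C57BL/6J and 257 ± 11.7 CPM in Rag2-/-γc-/- recipients (edgeR adjusted p = 0.0224). The kinase gene Jak1, named after its values were seen, was at 232 ± 25.5 and 323 ± 52.6 CPM in the same order (edgeR adjusted p = 0.0379). The call of Irf1 held when any 1 library was left out. That of Nlrc5 ended on leaving out library 6, 8 or 9, that of Nfkb1 on leaving out library 3, 4, 6, 8 or 9, and that of Jak1 on leaving out library 3, 4, 5, 6, 7, 8 or 9 (edgeR adjusted p up to 0.101). With Rag2-/-γc-/- libraries 7, 8 and 9 all left out, none of these 4 was called.

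**Figure D5:**
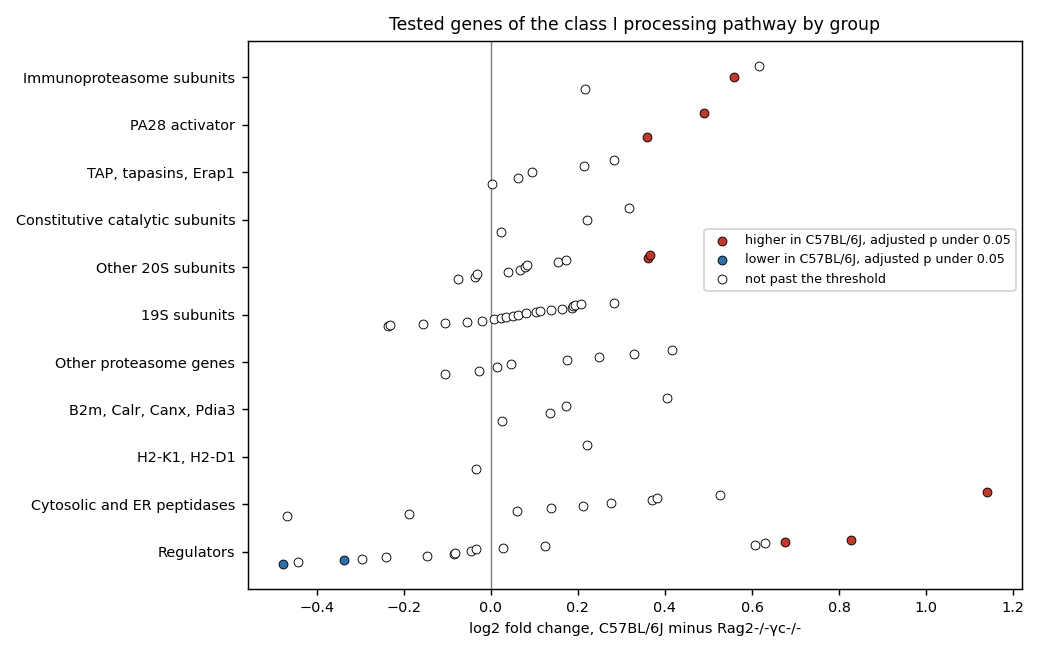
Log2 fold change of C57BL/6J minus Rag2-/-γc-/- recipients (horizontal axis) of the tested genes in the pathway lists, in rows by group, with genes called higher in red, lower in blue and not called in white. Lap3 at 1.14 and Nlrc5 at 0.83 lie furthest to the right, and the 19S subunits scatter around 0 with none called.

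Markers of several cell types, and of myeloid leukaemia, were summed in each library. Whether a marker's transcripts came from the leukaemia cells or from other cells was not tested. The sums of the T cell and NK cell lists did not overlap between the groups, and those of the other 6 lists did. In bulk samples fewer cells of a type and less RNA per cell cannot be told apart. The summed level of 15 T cell markers was 64.4 to 117 CPM in C57BL/6J and 19.6 to 46.1 CPM in Rag2-/-γc-/- libraries. Most of it was Cd8a (48.6 to 107 CPM in C57BL/6J and 14.9 to 41.2 CPM in Rag2-/-γc-/- libraries), which dendritic cells also express, while 12 of the 15 averaged under 1 CPM and Trac, Trbc1, Trbc2, Cd8b1 and Cd28 were at 0 in all Rag2-/-γc-/- libraries. The 10 NK cell markers summed to 14.6 to 21.6 CPM in C57BL/6J and 3.27 to 10.5 CPM in Rag2-/-γc-/- libraries, most of it Klrk1, with Ncr1 at 0 in all Rag2-/-γc-/- libraries. Against 3.32% of all tested genes, edgeR called 2 of the 6 tested T cell markers higher (Cd8a and the T cell receptor kinase gene Zap70). It also called 1 of the 2 tested NK cell markers higher (Klrk1, an activating receptor). The other, Klrb1c, went the other way, with medians of 0.888 CPM in C57BL/6J and 2.20 CPM in Rag2-/-γc-/- libraries. Its edgeR log2 fold change was -1.37, and DESeq2 called it lower (8.27% of all genes). Among the 6 T cell markers Cd5 was lower, at -0.99, and DESeq2 did not call it. Both had an unadjusted p under 0.05 in edgeR without a call. Zap70, at 0 to 0.034 CPM in Rag2-/-γc-/- libraries, met the filter on low counts through C57BL/6J libraries alone, which fixed the direction of its call. With no filter edgeR called 11 of 15 T cell and 4 of 10 NK cell markers higher, against 2.42% of all genes. The 12 B and plasma cell markers summed to 87.5 to 341 CPM in C57BL/6J, with 341 in library 1, and 60.1 to 162 CPM in Rag2-/-γc-/- libraries. The 11 dendritic cell markers, whose cells are rich in immunoproteasome, summed to 3379 to 4507 CPM in C57BL/6J and 2678 to 3652 CPM in Rag2-/-γc-/- libraries. The myeloid leukaemia list summed to 1975 to 2565 and 2266 to 3386 CPM in the same order. At such levels the dendritic markers cannot be taken to mark cells other than the leukaemia. Of these lists, edgeR called 2 of 6 tested B and plasma cell markers higher (Cd79a and Igkc, both of the B cell receptor). It called 1 of 8 tested dendritic cell markers higher (the receptor gene Flt3) and none of either list lower. Igkc, at 0 CPM in all Rag2-/-γc-/- libraries, also met the filter through C57BL/6J libraries alone. Cd79a, at 0.131 to 0.814 CPM in Rag2-/-γc-/- libraries, would not have met it through those libraries alone. Its call is therefore a description. With no filter, 9 of 12 B and plasma cell markers were higher. All 8 dendritic cell markers had log2 fold changes above 0, with a median of 0.42. At an unadjusted p under 0.05 in edgeR 5 of the 8 were higher, and DESeq2 called 4 (5.75% of all genes). Limma-voom called 1, and 7 with sample quality weights (23.7% of all genes).

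The 10 macrophage markers summed to 31.1 to 211 CPM in C57BL/6J and 100.1 to 336 CPM in Rag2-/-γc-/- libraries, the 8 erythroid markers to 14.7 to 146 and 74.2 to 242 CPM, and the 9 stromal and endothelial markers to 21.8 to 95.2 and 11.3 to 32.0 CPM, each in the same order. Of the 10 macrophage markers, edgeR called the phagocytic receptor gene Timd4 higher (7.06 to 17.9 CPM in C57BL/6J and 0.751 to 5.47 CPM in Rag2-/-γc-/- libraries) and the scavenger receptor gene Marco lower (0.151 to 2.49 and 1.92 to 8.35 CPM, in the same order). Of 6 tested erythroid markers edgeR called 0, although all 6 were lower at an unadjusted p under 0.05, DESeq2 called 4 and limma-voom 6 lower, and without C57BL/6J library 1 edgeR called 7 of 7 lower. The stromal list had 1 of 3 higher (the collagen gene Col1a1). For these lists too, the shares among all tested genes in edgeR were 3.32% higher and 4.47% lower. The 10 genes of the myeloid leukaemia list summed to 1975 to 2565 CPM in C57BL/6J and 2266 to 3386 CPM in Rag2-/-γc-/- libraries. Of them the receptor kinase gene Kit was higher (3.21 to 7.52 CPM in C57BL/6J and 0.163 to 0.434 CPM in Rag2-/-γc-/- libraries), and the progenitor antigen gene Cd34 (98.6 to 169 and 202 to 489 CPM), the receptor gene Csf1r (13.4 to 46.4 and 54.8 to 91.2 CPM) and the myeloid factor gene Cebpa (1.03 to 4.96 and 9.38 to 34.9 CPM) were lower, in the same order, against 4.47% of all tested genes lower. Kit, Col1a1 and Marco would not have met the filter on low counts through the group where each was low. Their calls are therefore descriptions. The isolation of GFP+ cells should remove recipient cells without GFP. The part of these cells in the differences of Psmb8, Psme1 and Psme2 was not tested. Rag2 and Il2rg, the genes deleted in the immunodeficient recipients, were at 1.52 to 2.39 and 9.68 to 17.7 CPM in C57BL/6J and at 2.0 to 6.58 and 10.5 to 12 CPM in Rag2-/-γc-/- libraries. The sorted cells descend from transduced marrow, so these genes do not check the recipient's genotype.

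The genes whose profile over the 10 libraries came closest to the mean profile of the 10 genes were sought among all other tested genes, by the root mean square distance of centred log2 CPM. They were Gps1 (0.0591), Tmem199 (0.0615), Txndc15 (0.0618), Stk3 (0.0645) and Napg (0.0669), while the 10 genes themselves lay at 0.103 to 0.313 from their own mean. The mean profile holds the difference between the groups, so the fold changes of genes chosen by it follow from that choice and are a description. On the log2 scale they were 0.26, 0.31, 0.30, 0.24 and 0.29. Of these genes only Napg passed the threshold (edgeR adjusted p = 0.0443). That call held in 3 of the 10 fits with 1 library left out (edgeR adjusted p up to 0.12).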

How the data were processed

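RNA-seq was measured in GFP+ splenocytes of 5 C57BL/6J and 5 Rag2-/-γc-/- secondary recipients, as poly(A)-selected NEBNext Ultra libraries read once per fragment, per the labels' protocols. The authors deposited expected counts per Ensembl gene. Cutadapt 1.11, STAR 2.5.2a, RSEM 1.2.30, edgeR and build GRCm38 are named per the submitters' processing notes, with no role or annotation release stated (not given in the sources used here). These values divide reads that fit several genes, so 15.3 to 17.3% of a library's values were not whole, and they were rounded before the tests.

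Libraries were grouped by the labels, and columns carried their titles. All 20 pairs of libraries of a group differed beyond sampling noise (chi-square per degree of freedom 8.64 to 203), and each counted as a replicate. edgeR 4.0.16 in R 4.3.3 gave the quasi-likelihood F test, fitted to all libraries with TMM, filterByExpr (minimum count 10, total 15) and a group term, adjusted by Benjamini-Hochberg over 13966 genes with a threshold of 0.05. Standard errors are the unshrunken coefficient over the square root of F. CPM were computed from rounded counts with TMM, and per kilobase with the longest APPRIS principal transcript of GENCODE M21 (GRCm38). Within-library ratios (0.5 added to each count for the test) had a two-sided exact permutation test with 252 assignments, adjusted over 3. On simulated data for the 13966 genes (3 sets of 200 changed genes), edgeR recovered 24.9% of 1.5-fold, 74.1% of 2-fold and 96% of 4-fold changes, with 3.95% false calls.

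The 10 genes and the 21 lists, whose 172 genes all matched (169 by symbol, 2 by alias, 1 by identifier), were chosen with earlier results of these data known. Genes were named by a rule: the 10 genes, their 3 constitutive counterparts, of every other list up to 4 members past the threshold by smallest adjusted p, else its lowest-p member, Irf1, Nlrc5, B2m, H2-K1, H2-D1, the Psme2 retrocopy and the 5 nearest profiles. A gene that this rule names is not reported here and was left out of its list. Alternatives were RLE and upper quartile normalisation, no filter or 1 CPM in 5 libraries, robust dispersion, DESeq2 1.42.0, limma-voom (limma 3.58.1) with and without sample quality weights, a pseudocount of 5 for ratios, and leaving out each library. Summing Psme2 with Psme2b-ps, and dropping libraries 10 and 11 or 7, 8 and 9 of the Rag2-/-γc-/- group, were chosen after seeing the data.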

Additional observations from a re-analysis of the deposited data

Results flagged for a closer look

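Of 32 groups of 5 values checked (levels and ratios of the genes described), 2 held a value far from the rest, and chance gives about 1 in 20. Psmb6 was at 149.7 CPM in C57BL/6J library 1, against 99.7 to 110.8 CPM in the other 4 C57BL/6J libraries (gap over range 0.778, limit 0.71). The ratio of Psmb10 to Psmb7 was 0.368 in Rag2-/-γc-/- library 10, against 0.460 to 0.481 in the other 4 Rag2-/-γc-/- libraries (gap over range 0.813, limit 0.71).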

How the results depend on the processing

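No paired analysis was possible because the groups share no replicate numbers. Of the 10 genes, 3 were called higher with all libraries, 2 (Psmb8 and Psme1) with no filter or with 1 CPM in 5 libraries, 5 by DESeq2, 7 by limma-voom with sample quality weights, 0 without Rag2-/-γc-/- libraries 7, 8 and 9, and 0 to 4 when 1 library was left out. None was called lower under any setting run. The genes called varied: without C57BL/6J library 1 they were Psmb8, Psme1 and Tapbpl. Log2 fold changes turned sign for Tapbp under RLE (-0.0026), the filter of 1 CPM in 5 libraries (-0.011), DESeq2 (-0.0026), limma-voom (-0.0024), leave-one-out (-0.045 to 0.066) and without libraries 10 and 11 (-0.041); for Tap2 without 7, 8 and 9 (-0.090); for Psmb6 under quality weights (-0.11), leave-one-out (-0.096 to 0.066) and without 10 and 11 (-0.035); for B2m without 10 and 11 (-0.12) and in leave-one-out (-0.038 to 0.11); and for H2-D1 without 7, 8 and 9 (0.14) and in leave-one-out (-0.079 to 0.027). None of these had passed the threshold, and the cause was not tested.

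Leaving out 1 library gave log2 ratio differences of 0.31 to 0.40 for Psmb8/Psmb5, 0.49 to 0.81 for Psmb9/Psmb6 and -0.17 to -0.068 for Psmb10/Psmb7. Without Rag2-/-γc-/- libraries 10 and 11 those of Psmb9/Psmb6 (1.01) and Psmb10/Psmb7 (-0.16) passed, but those libraries were chosen after their values were seen. Without 7, 8 and 9 that of Psmb8/Psmb5 was 0.24, with no overlap between groups, where 5 against 2 allow no p under 0.0476 before adjustment. A pseudocount of 5 changed no call.

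Counts of called genes in the other lists moved as follows, beside 3.32% higher and 4.47% lower of all tested genes in edgeR, 23.7% and 23.0% in the weighted limma-voom fit, 5.75% and 8.27% in DESeq2, and 19.3% and 17.4% in edgeR without libraries 10 and 11. With sample quality weights the weighted limma-voom fit called 1 constitutive catalytic subunit higher, 2 other 20S genes lower, 2 genes of the 19S list higher and 5 lower, 3 other proteasome genes higher and 1 lower, 3 of B2m and the chaperones higher, 1 heavy chain higher, 6 peptidases higher and 2 lower, and 4 regulators higher and 4 lower. DESeq2 called 3 peptidases higher and 1 lower, and 4 regulators higher. Without libraries 10 and 11 edgeR called 1 constitutive subunit higher, 2 genes of the 19S list higher and 2 lower, 3 other proteasome genes higher, 2 of B2m and the chaperones higher, 6 peptidases higher and 2 lower, and 5 regulators lower. Without 7, 8 and 9 it called 0 other 20S genes higher and 0 regulators in either direction. Leave-one-out counts were 0 to 1 constitutive subunits, 0 to 2 other 20S genes, 0 to 1 of B2m and the chaperones, 1 to 3 peptidases and 1 to 3 regulators higher, and 0 to 3 regulators lower. The recovery stated for simulated 1.5-fold changes averages over changed genes drawn from all tested genes, with a dispersion set by a trend over genes. It therefore does not give the share of differences missed among the 10 genes.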
